A study of Mus musculus with 12 samples.

Results

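Cerebellins and neurexins were followed in subcutaneous tumors of SVR cells, an established mouse angiosarcoma line derived from immortalized islet endothelial cells that express activated H-Ras. The set held 6 of the 54232 genes in the count table: the cerebellin genes Cbln1, Cbln2, Cbln3 and Cbln4 and the neurexin genes Nrxn2 and Nrxn3. The members were found by their gene names, and the set was chosen by measured values, namely the CPM of Cbln1, which was very low in tumors treated with trametinib and high in tumors treated with cediranib alone. The levels of Cbln1 are therefore given as a description, with no test. CPM, the unit of level used here, is a gene's read count per 1000000 reads of its library, after TMM scaling, which adjusts the library totals for differences in composition.

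The tumors grew in athymic nude mice 8 to 12 weeks old, which lack a thymus and so mature T cells, and SVR carries the strain label C57BL/6. Mice received vehicle (Control), trametinib at 1 mg/kg (Trametinib), cediranib at 3 mg/kg (Cediranib) or both drugs at these doses (Combination) daily by gavage, with 3 tumors in each of the 4 groups. Trametinib inhibits the kinase MEK in the MAPK pathway, and cediranib inhibits the tyrosine kinases of the VEGF receptors. The labels give dosing as lasting until a tumor ulcerated or passed a size limit, the time on drug of each sequenced tumor is not stated in the sources used here, and the RNA was taken from whole tumor tissue of 1 cell line. The 12 exome-capture RNA libraries held between 9478865 and 11666094 counts.

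Cerebellins are small secreted proteins with a C1q domain that assemble into larger complexes and act as synapse organizers. Cerebellin 1, best known from granule cells of the cerebellum, binds neurexins on the presynaptic side and a receptor on the postsynaptic side, and so bridges the cleft. Neurexins are single-pass membrane proteins of the presynaptic terminal whose other binding partners include neuroligins, LRRTM proteins, latrophilins, dystroglycan and neurexophilins. The role of cerebellins outside the nervous system is less well described.

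Cbln1 was the only cerebellin with more than a few reads in these tumors. It lay near the middle of the tested genes in Control tumors, was higher in every Cediranib tumor and was at 17 counts or fewer in every tumor that received trametinib, alone or in combination. Cbln1 (ENSMUSG00000031654) is listed on chromosome 8 from 87468405 to 87472386 of mouse build GRCm38. Its 1174 counts over the 12 libraries made up 99.3% of all cerebellin counts.

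The 3 Control tumors held 160, 94 and 106 Cbln1 counts, or 13.6, 9.53 and 10.7 CPM. The 3 Cediranib tumors held 317, 231 and 229 counts, or 31.7, 21.8 and 21.9 CPM. Every Cediranib tumor was thus above every Control tumor, and the group means were 25.1 ± 5.65 and 11.3 ± 2.11 CPM (SD, n = 3 each). The 3 Trametinib tumors held 17, 3 and 4 counts, or 1.54, 0.349 and 0.335 CPM, with a mean of 0.742 ± 0.694 CPM (SD, n = 3). The 3 Combination tumors held 3, 1 and 9 counts, or 0.303, 0.0908 and 0.835 CPM, with a mean of 0.410 ± 0.384 CPM (SD, n = 3). The tumors that received trametinib were all below the Control and Cediranib tumors, and the Trametinib and Combination groups overlapped. In 4 of these 6 tumors Cbln1 had no more than 4 counts, and 3 counts, the limit that a count of 0 allows, corresponded to between 0.251 and 0.349 CPM in these libraries.

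**Figure D1:**
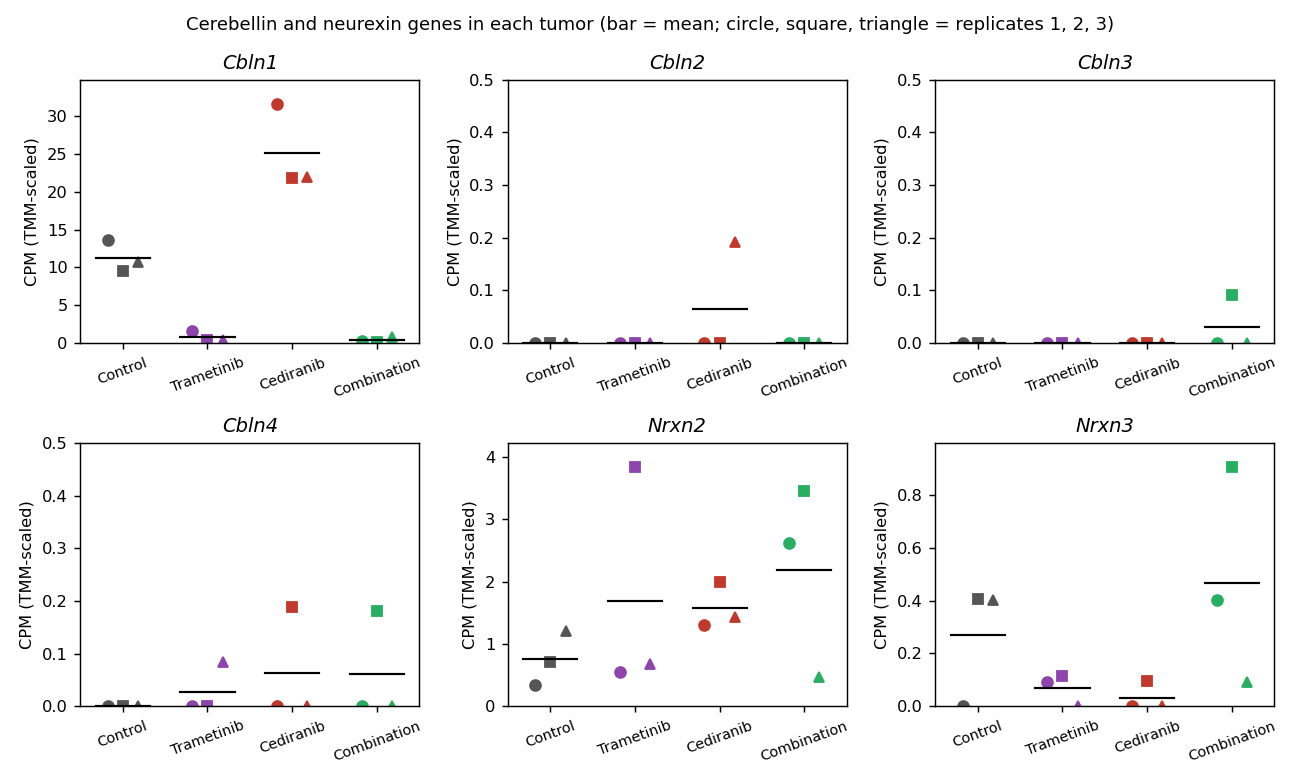
CPM of each of the 6 cerebellin and neurexin genes (vertical axes, linear, a scale of its own for each gene) in the 4 treatment groups (horizontal axes), with 1 point per tumor and a bar at the group mean. Cbln1 is between 21.8 and 31.7 CPM in Cediranib tumors and at or below 1.54 CPM in every tumor that received trametinib, while Cbln2, Cbln3 and Cbln4 stay at or below 0.191 CPM throughout.

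In the edgeR fit the log2 fold change of Cbln1 against Control was -3.88 (SE 0.54) in Trametinib tumors, which is 14.8-fold lower. Against the same Control tumors it was 1.15 (SE 0.43) in Cediranib tumors, which is 2.22-fold higher, and -4.74 (SE 0.58) in Combination tumors, which is 26.8-fold lower. The Control tumors enter all of these differences. Between the drug groups, Cbln1 was 59.6-fold lower in Combination than in Cediranib tumors (log2 fold change -5.90, SE 0.59). That value ran from -6.94 to -5.40 with 1 tumor left out. Against Trametinib tumors the log2 fold change in Combination tumors was -0.86 (SE 0.69), and it became 0.26 without Trametinib tumor 1 and -1.91 without Combination tumor 3. So the order of the groups was Cediranib, Control and then the trametinib-treated groups, and these data gave no order between Trametinib and Combination.

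The fold changes against Control depended in size on single tumors with few counts. Without Trametinib tumor 1, which held 17 of the 24 counts of its group, the log2 fold change was -5, and without Combination tumor 3, which held 9 of 13, the log2 fold change of Combination against Control was -5.80. Leaving out any 1 tumor kept the Cediranib difference between 0.95 and 1.30. The difference of differences, the change with cediranib on top of trametinib less the change with cediranib alone, was -2.01 (SE 0.82) and lay between -3.05 and -0.90 with 1 tumor left out.

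Per kilobase of the gene length given in the table (3037 bases), the mean Cbln1 level was 3.72 CPM per kb in Control tumors, above 52.1% of the 12897 genes tested. It was 8.28 CPM per kb in Cediranib tumors, above 68.4% of the tested genes. In Trametinib and Combination tumors it was 0.244 and 0.135 CPM per kb, above 7.75% and 2.7% of the tested genes. Cbln1 thus moved from the middle of the tested genes to near the bottom on this scale. How well the exome capture takes up each gene was not assessed, so places between genes are approximate. The gene overlaps the lincRNA Gm2694 on the opposite strand, which had 2 counts in all libraries together.

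The other cerebellins were at the limit of detection. Cbln2, which also binds neurexins (ENSMUSG00000024647, chromosome 18 from 86711110 to 86717589), had 2 counts, both in Cediranib tumor 3. Cbln3, which needs Cbln1 to be secreted from granule cells (ENSMUSG00000040380, chromosome 14 from 55878913 to 55884232), had 1 count, in Combination tumor 2. Cbln4 (ENSMUSG00000067578, chromosome 2 from 172036233 to 172043466), a ligand of neurexins and of the netrin receptor DCC, had 1 count in Trametinib tumor 3, 2 in Cediranib tumor 2 and 2 in Combination tumor 2. All of these counts are at or below 3 per library, so neither a level nor a difference between treatments was detectable for these genes at this depth.

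The neurexin genes had few reads. Nrxn2 did not pass the test in any contrast, and Nrxn3 had too few reads to be tested. Nrxn2 (ENSMUSG00000033768, chromosome 19 from 6418731 to 6544169) encodes neurexin 2 and had 188 counts over the 12 libraries. Its CPM was 0.341, 0.709 and 1.21 in Control tumors, 0.545, 3.84 and 0.670 in Trametinib tumors, 1.30, 1.99 and 1.44 in Cediranib tumors and 2.63, 3.45 and 0.464 in Combination tumors. The Cediranib tumors were all above the Control tumors, while the Trametinib and Combination groups each overlapped the Control range. The means were 0.754 ± 0.438, 1.69 ± 1.87, 1.57 ± 0.364 and 2.18 ± 1.54 CPM in Control, Trametinib, Cediranib and Combination tumors (SD, n = 3 each).

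Of the 6 members, Cbln1 and Nrxn2 passed the filter on low counts, and Nrxn2 was the one member to be tested. A gene was called when its Benjamini-Hochberg adjusted p in edgeR's quasi-likelihood test was under 0.05 and its absolute log2 fold change was at least 1.5. This rule called 2.4% of all tested genes for Trametinib against Control, 0% for Cediranib against Control, 3.61% for Combination against Control, 0.675% for Combination against Trametinib, 2.45% for Combination against Cediranib and 0% for the difference of differences. Nrxn2 was not called in any of these 6 contrasts. The smallest of its adjusted p-values by edgeR was 0.258, for Combination against Control, where the log2 fold change was 1.53 with a 95% interval from -0.27 to 3.34. For Trametinib against Control it was 1.12 with an interval from -0.72 to 2.96 (edgeR adjusted p = 0.515), and for Cediranib against Control 1.07 with an interval from -0.76 to 2.90 (edgeR adjusted p = 0.999). No unadjusted p of Nrxn2 was under 0.05 in edgeR and DESeq2 did not call it either. These intervals include no change as well as increases of several fold. The 0 genes called for Cediranib against Control compare with 557 genes at an unadjusted p under 0.05 in edgeR and 10 called by DESeq2, and the 0 for the difference of differences with 909 and 28.

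A single tumor set the sign of some Nrxn2 values. Without Trametinib tumor 2, which held 33 of the 47 counts of its group, the log2 fold change of Trametinib against Control went from 1.12 to -0.29. Per kilobase, Nrxn2 was at 0.0546 CPM in Control tumors, above 1.16% of the tested genes, and at 0.122, 0.114 and 0.158 CPM in Trametinib, Cediranib and Combination tumors. On this scale Cbln1 was above Nrxn2 in every group mean except that of Combination tumors, where Cbln1 was at 0.135. The antisense gene Gm14964 overlaps Nrxn2 and had 38 counts, and the sources used here do not state whether counting used strand, so reads of the pair may not be separable.

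Nrxn3 (ENSMUSG00000066392, chromosome 12 from 88722876 to 90333060), which encodes neurexin 3, had 26 counts and was not tested. It had 0, 4 and 4 counts in Control tumors, 1, 1 and 0 in Trametinib tumors, 0, 1 and 0 in Cediranib tumors and 4, 10 and 1 in Combination tumors. All groups overlapped at least 1 other group, and 11 of the 12 libraries held no more than 4 counts, so no order of the groups could be read at this depth.

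In bulk tissue, fewer cells of a type and less RNA per cell cannot be told apart. Markers of the endothelium, the lineage of the SVR line, moved with Cbln1 in the trametinib-treated groups. The summed CPM of 10 endothelium markers (Pecam1, Cdh5, Kdr, Flt1, Tek, Tie1, Vwf, Emcn, Erg and Esam) ran from 211 to 445 in Control, 52.4 to 112 in Trametinib, 127 to 335 in Cediranib and 35.7 to 87.8 in Combination tumors. Tie1 alone made up 47.3% of this sum and Cdh5 22.2%, while Emcn had 12 counts in all and was at 0 in 5 libraries. Of the 9 endothelium markers tested by edgeR, 5 were called lower in Trametinib and 5 in Combination than in Control tumors, and 0 in Cediranib tumors. Their part in the Cbln1 difference was not tested.

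The CPM of Cbln1 is given here as a percent of the summed endothelium markers, as a description. This percent was 6.46%, 3.56% and 2.4% in Control tumors and 10.6%, 6.53% and 17.3% in Cediranib tumors. It was 1.67%, 0.312% and 0.639% in Trametinib tumors and 0.377%, 0.254% and 0.951% in Combination tumors. All trametinib-treated tumors were below all others, the Trametinib and Combination groups overlapped, and the lowest Cediranib value lay just above the highest Control value.

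**Figure D2:**
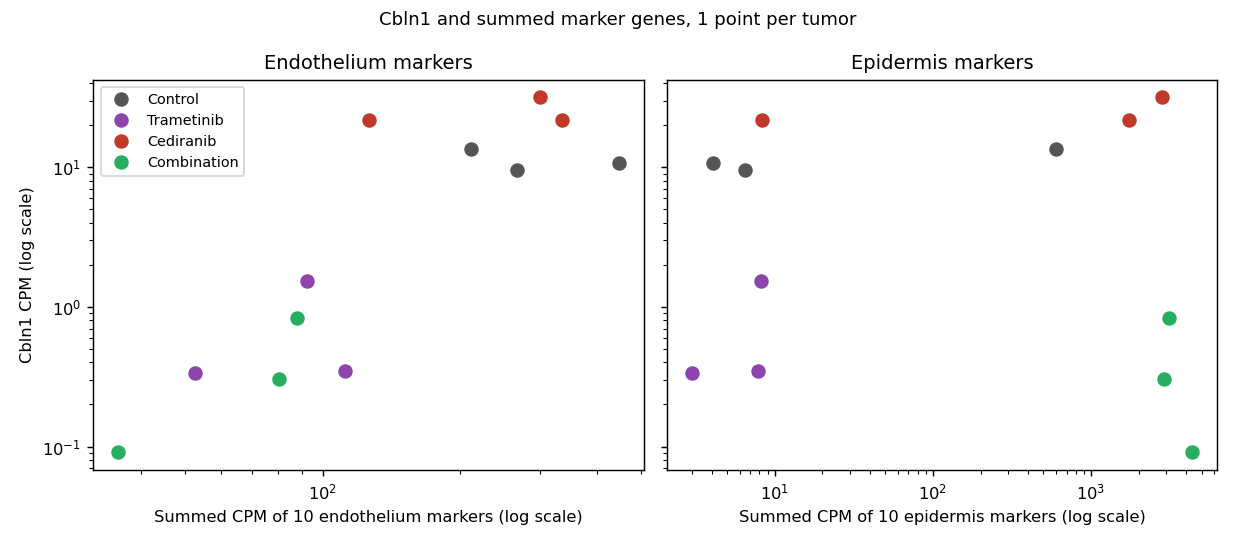
Cbln1 CPM (vertical axis, log scale) against the summed CPM of 10 endothelium markers (left) and of 10 epidermis markers (right; both horizontal axes log scale), with 1 point per tumor colored by group. Trametinib and Combination tumors lie low on both Cbln1 and the endothelium markers, and Combination tumors lie at 2891 CPM or more of epidermis markers while Trametinib tumors lie at or below 8.17.

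The summed epidermis markers (10 genes) ran from 2891 to 4377 CPM in Combination tumors but from 3.01 to 8.17 CPM in Trametinib tumors, and were 604, 6.49 and 4.04 CPM in Control tumors. In Cediranib tumors the sum was 2814, 8.32 and 1728 CPM, beside 31.7, 21.8 and 21.9 CPM of Cbln1 in the same order. The Control tumors, in the order above, had 13.6, 9.53 and 10.7 CPM of Cbln1. The part of epidermis in the Cbln1 values was not tested.

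The genes that define neurons and Schwann cells were near 0. The summed neuron markers ran from 257 to 676 CPM in Control, 380 to 1041 in Trametinib, 357 to 693 in Cediranib and 432 to 803 in Combination tumors, but Tubb3, a tubulin not limited to neurons, made up 96.9% of the sum. Of the neuron-defining genes, Rbfox3 had 11 counts over all libraries, Snap25 15, Syt1 18 and Elavl4 11. The neurofilament gene Nefm, singled out after its values were seen because it was the 1 neuron marker called, ran from 0.596 to 10.8 CPM in Control tumors, where 1 tumor held 107 of the 122 counts, and from 0 to 0.167 CPM in Trametinib and 0 to 0.278 CPM in Combination tumors. Its log2 fold change against Control was -5.77 (SE 1.49, edgeR adjusted p = 0.0411) in Trametinib and -4.88 (SE 1.36, edgeR adjusted p = 0.0422) in Combination tumors, and its part in the Cbln1 difference was not tested. The summed Schwann cell markers ran from 31.1 to 38.8 CPM in Control, 46.3 to 51.9 in Trametinib, 25.3 to 38.5 in Cediranib and 38.4 to 53.2 in Combination tumors, of which Pmp22, a gene not limited to Schwann cells, made up 71.1%. Defining Schwann cell genes were near 0, with 19 counts of Sox10, 7 of S100b and 1 of Cdh19 in all 12 libraries together.

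Markers of other tissues varied widely between tumors of a group. Fibroblast markers summed to 2233 to 22045 CPM in Control, 8606 to 38818 in Trametinib, 1799 to 7233 in Cediranib and 3462 to 5968 in Combination tumors. Skeletal muscle markers reached 18545 CPM in Control tumor 2 and 27692 CPM in Trametinib tumor 2, against lowest values of 20.7 and 281 CPM in these groups, and ran from 32.7 to 200 CPM in Cediranib and 58.4 to 692 CPM in Combination tumors. Trametinib tumor 2 also held most of the Nrxn2 counts of its group, at 3.84 CPM, while Control tumor 2 was at 0.709 CPM of Nrxn2. Combination tumor 2, at 58.4 CPM of muscle markers, was at 3.45 CPM of Nrxn2. Macrophage markers summed to 400 to 693 CPM in Control, 311 to 434 in Trametinib, 295 to 450 in Cediranib and 178 to 316 in Combination tumors. The part of these tissues in the Cbln1 and Nrxn2 values was not tested.

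The receptors that cerebellins and neurexins bind were mostly at the limit of detection, and those that were well expressed did not pass the test in any contrast. A list of 12 such genes included Grid1, the cerebellin 4 receptor Dcc and its relative Neo1, the neuroligins Nlgn1 to Nlgn3 and Lrrtm1 to Lrrtm4, of which 11 had a count and 4 were tested. Dcc had 66 counts, 40 of them in Combination tumor 2. Lrrtm3 had 0 counts, and a count of 0 allows up to 0.349 CPM per library. By contrast Neo1 averaged 223, 255, 224 and 271 CPM, and Nlgn2, a neuroligin of inhibitory synapses, averaged 112, 107, 106 and 155 CPM in Control, Trametinib, Cediranib and Combination tumors. None of the 4 tested receptors was called in any of the 6 contrasts, and the median log2 fold change of the list was -0.18, -0.03 and 0.72 for Trametinib, Cediranib and Combination against Control, beside 0.01, 0.00 and 0.00 over all tested genes.

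Grid1, which encodes a glutamate receptor of the delta type and was singled out after its values were seen, had 55 counts and no test. It had 7, 2 and 2 counts in Control tumors, 1, 2 and 1 in Trametinib tumors, 9, 11 and 10 in Cediranib tumors and 1, 4 and 5 in Combination tumors. The Cediranib tumors, at 0.899 to 1.04 CPM, were above all the others, which ran from 0.0837 to 0.596 CPM. These counts are small, and Grid1 did not reach the filter on low counts.

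Over 5 lists, 47 of 91 genes were tested and 4 were called in at least 1 contrast. Of these lists, 1 held other genes with a C1q domain, 12 of them tested and 0 called. The rest held genes of the neurexin and related adhesion systems, and the genes of all 5 are named partner genes here. For Trametinib against Control 0 were higher and 2 lower, which is 4.26% of the tested partner genes beside 2.4% of all genes. For Cediranib against Control 0 were called, beside 0% of all genes. For Combination against Control 1 was higher and 2 were lower, or 6.38% beside 3.61%, and against Cediranib likewise 1 was higher and 2 were lower, or 6.38% beside 2.45%. Against Trametinib 1 was higher in Combination tumors, or 2.13% beside 0.675%, and 0 were called for the difference of differences. With so few genes these shares rest on 1 to 3 genes each, and the median log2 fold changes of the partner genes, from -0.06 to 0.22 over the 6 contrasts, stayed near those of all genes, from -0.01 to 0.01.

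**Figure D3:**
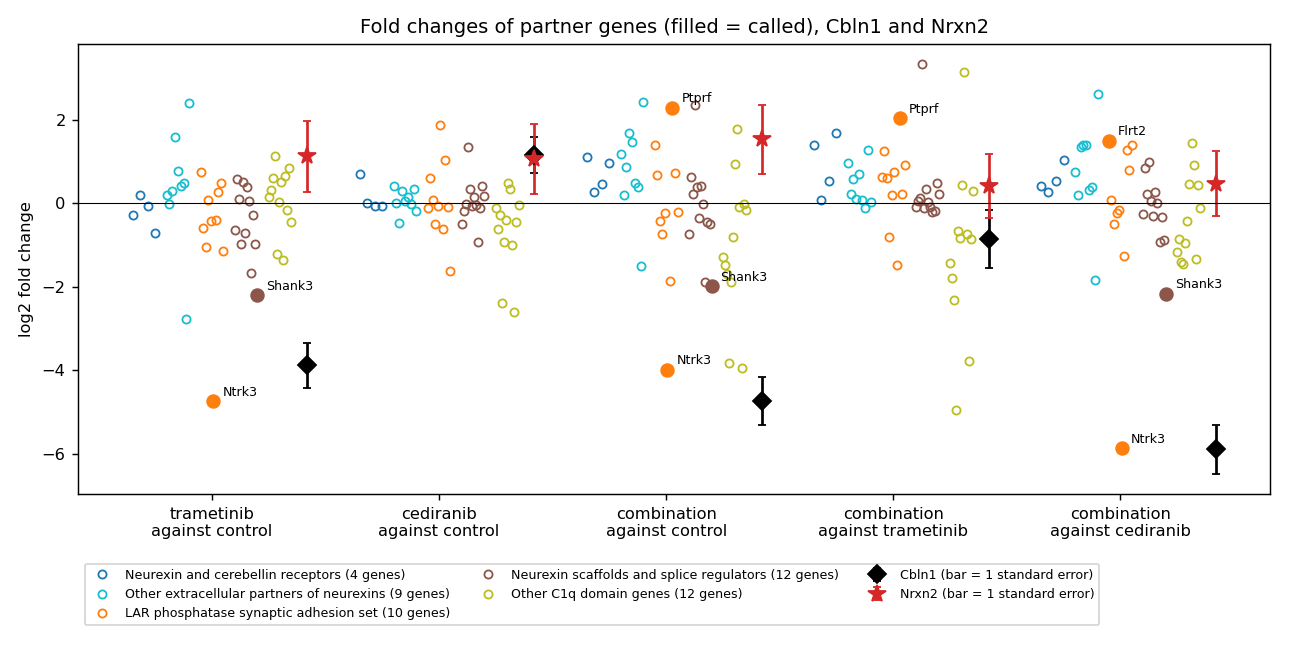
Log2 fold change (vertical axis) of the 47 tested partner genes, colored by list, in 5 contrasts (horizontal axis), with filled points for called genes, and of Cbln1 (diamond) and Nrxn2 (star) with bars of 1 standard error. Shank3 and Ntrk3 lie low in each contrast of a trametinib-treated group with Control or of Combination with Cediranib, as Cbln1 does, and most other partner genes lie between -2 and 2.

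Among scaffold proteins and splice regulators of neurexin synapses, 12 of 18 genes were tested, and Shank3 was the 1 called gene. Shank3 encodes a large scaffold of the postsynaptic density that also occurs in cells outside the brain. Its CPM was 282, 253 and 335 in Control, 67.5, 68.2 and 52.7 in Trametinib, 470, 344 and 175 in Cediranib and 67.8, 71.2 and 81.1 in Combination tumors. The trametinib-treated groups were below both other groups with no overlap. The log2 fold change was -2.21 (SE 0.28, edgeR adjusted p = 0.000953) for Trametinib against Control, -1.98 (SE 0.28, edgeR adjusted p = 0.0023) for Combination against Control and -2.17 (SE 0.28, edgeR adjusted p = 0.00156) for Combination against Cediranib. The antisense lincRNA Gm15609 overlaps Shank3 with 513 counts beside 23576.

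In the set of synaptic adhesion genes around the LAR family of receptor phosphatases, which bind their own postsynaptic partners in parallel to neurexins, 10 of 20 genes were tested and 3 were called. Ntrk3 encodes TrkC, the receptor of neurotrophin 3 and a partner of the phosphatase PTPRS. It was at 23.0, 11.7 and 6.06 CPM in Control, 0.726, 0 and 0.670 in Trametinib, 21.7, 18 and 110 in Cediranib and 0, 0.817 and 1.67 CPM in Combination tumors. As for Cbln1, every trametinib-treated tumor was below every Control and Cediranib tumor. The log2 fold change was -4.74 (SE 1.05, edgeR adjusted p = 0.02) for Trametinib against Control, -3.99 (SE 0.98, edgeR adjusted p = 0.0261) for Combination against Control and -5.87 (SE 1.01, edgeR adjusted p = 0.00659) for Combination against Cediranib. The first call was lost without Control tumor 1 or without any 1 Trametinib tumor (edgeR adjusted p from 0.0558 to 0.0703), and the call against Control in Combination tumors without Control tumor 1 or 2 or Combination tumor 1 or 2 (0.0531 to 0.084). The call for Combination against Cediranib was kept with 1 tumor left out. Its log2 fold change then ran from -6.83 to -4.52, the latter without Cediranib tumor 3, the one at 110 CPM.

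Ptprf, which encodes LAR itself, moved the other way and in the Combination group. It was at 7.49, 7.30 and 9.19 CPM in Control, 8.72, 5.59 and 14.2 in Trametinib, 21.3, 8.04 and 19.6 in Cediranib and 33.3, 42.7 and 41.8 CPM in Combination tumors. Every Combination tumor was above all the others. The log2 fold change was 2.29 (SE 0.37, edgeR adjusted p = 0.00469) against Control and 2.03 (SE 0.37, edgeR adjusted p = 0.0323) against Trametinib, and the second call was lost without any 1 of the 6 tumors compared (edgeR adjusted p from 0.0663 to 0.105). Ptprf is strongly made by epithelia, and the epidermis markers given above were high in the same 3 tumors, whose part in this result was not tested. Flrt2, an adhesion protein that binds latrophilins, averaged 16.7 CPM in Cediranib and 47.4 CPM in Combination tumors, a log2 fold change of 1.5 (SE 0.36, edgeR adjusted p = 0.0268) at the edge of the fold threshold, and this call was lost in 5 of 11 alternatives.

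The remaining lists held no called gene. Of 19 other extracellular partners of neurexins (calsyntenins, neurexophilins, dystroglycan, latrophilins, C1q-like proteins and their receptors), 9 were tested, with log2 fold changes between -2.77 and 2.41 for Trametinib against Control. Of 22 other genes with a C1q domain, the domain that cerebellins share, 12 were tested and 21 had a count. Their median log2 fold change was 0.23 for Trametinib, -0.42 for Cediranib and -1.05 for Combination against Control. In the last contrast 10 of the 12 were negative and 0 were called, with values from -3.95 to 1.79. The lowest values were those of Col8a2 (-3.95, edgeR adjusted p = 0.0866), a collagen chain, and C1qtnf3 (-3.83, edgeR adjusted p = 0.103), a secreted C1q and TNF related protein, both named after their values were seen. The summed macrophage and fibroblast markers of each group are given above, and their part in these values was not tested.

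The tested genes with the profile closest to Cbln1 shared its loss with trametinib more than its rise with cediranib. Closeness was the root mean square difference of log2 CPM (prior count 2), centred on each gene's mean, over the 12 tumors, and Cbln1 itself had an SD of 2.58 on this scale. The 8 closest were Tnnt2 (0.760), Rab11fip4 (0.907), Gm16548 (0.917), Selp (1.01), Car8 (1.06), Megf10 (1.07), Syt16 (1.07) and A330015K06Rik (1.11), where the median over all tested genes was 2.49. These genes were picked for their likeness, so the values that follow describe them and test nothing, and the profiles of all of them share the same 12 libraries.

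**Figure D4:**
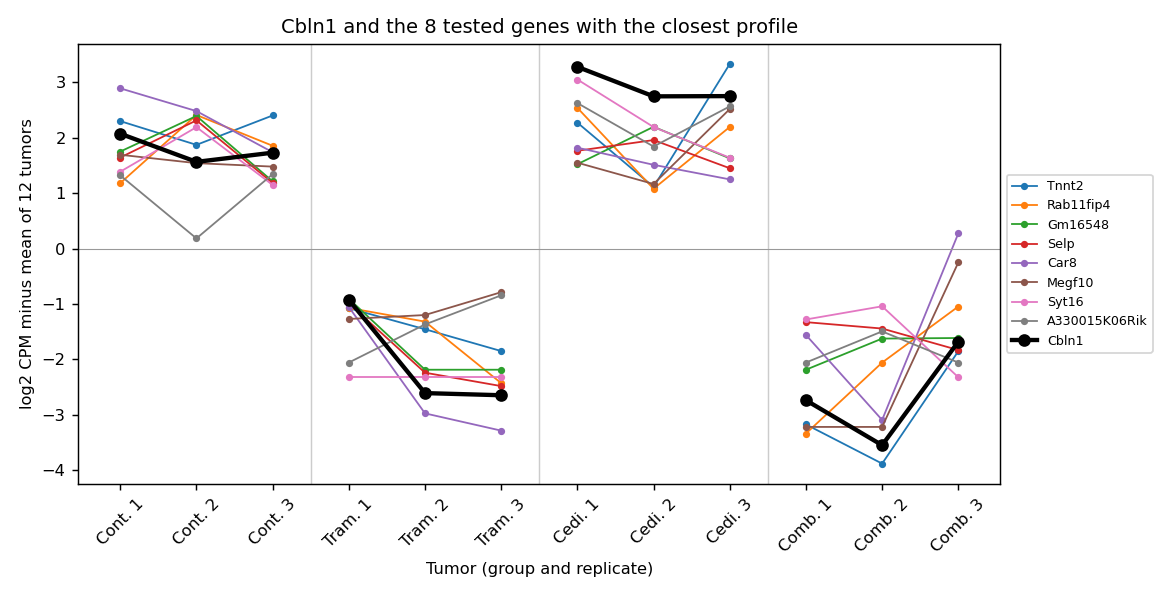
Log2 CPM less the mean of the 12 tumors (vertical axis) for Cbln1 (thick black line) and the 8 tested genes with the closest profile, for each tumor by group and replicate (horizontal axis), with lines that join the tumors of a group only to trace a gene. Control and Cediranib tumors lie above 0 and Trametinib tumors below 0 for every gene shown, and Cbln1 is the highest line in 2 of the 3 Cediranib tumors.

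Tnnt2, the cardiac form of troponin T, averaged 142 CPM in Control, 11.3 in Trametinib, 175 in Cediranib and 4.5 in Combination tumors. Selp, the adhesion receptor P-selectin of endothelium and platelets, averaged 6.71, 0.406, 6.47 and 0.507 CPM in the same order. Car8, a carbonic anhydrase relative without enzyme activity that is abundant in Purkinje cells, averaged 67.5, 2.77, 36.1 and 6.72 CPM. In each of these genes the Cediranib and Control tumors overlapped. Rab11fip4, an effector of the recycling GTPase Rab11, averaged 6.99, 0.492, 7.83 and 0.338 CPM. Megf10, an engulfment receptor, averaged 5.08, 0.655, 6.24 and 0.433 CPM, and Syt16, an atypical synaptotagmin, averaged 2.79, 0, 4.88 and 0.158 CPM.

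Of the 8 genes, A330015K06Rik was the one whose Cediranib tumors (2.65 to 4.70 CPM) lay wholly above its Control tumors (0.709 to 1.82 CPM), as those of Cbln1 did. It lies within Kcnab1 on the opposite strand, which had 2902 counts beside its own 173, so its reads may not be separable from those of Kcnab1. Gm16548, at 2.97, 0.0908, 2.86 and 0.0612 CPM, lies opposite Selp and F5 and may share reads with Selp, and Syt16 lies opposite Gm29587 with 96 counts. With a prior count of 0.5 in place of 2, 5 of the 8 genes were named again. For Nrxn2 the closest genes were Gm42686 (0.525), Ctse (0.637) and Timp1 (0.642), beside a median of 1.00 over all genes and an SD of 0.98 for Nrxn2 itself, so their closeness says little.

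Near Cbln1, 1 other gene could be tested. Of the 17 genes within 500 kb of Cbln1, itself included, 3 had a count and 2 were tested. The other tested gene was Zfp423, a zinc finger transcription factor, at 24.0 ± 17.5 CPM in Control, 23.9 ± 14.1 in Trametinib, 15.9 ± 0.575 in Cediranib and 58.7 ± 16.5 in Combination tumors (SD, n = 3 each). Its log2 fold change was 0.00 (SE 0.49, edgeR adjusted p = 0.999) for Trametinib against Control. It was called higher in Combination than in Cediranib tumors, with a log2 fold change of 1.88 (SE 0.51, edgeR adjusted p = 0.0438), where Cbln1 was lower.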

How the data were processed

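RNA from 12 SVR tumors was made into exome-capture libraries and sequenced. The study's methods give comparatively strong RNA degradation in these tumors as the reason for exome capture. Per the submitters' processing notes, base calling used bcl2fastq 1.8.4, alignment STAR 2.7.1a and counting featureCounts 1.6.0. The deposited values were raw counts per gene, without normalization, and neither the strand setting nor the annotation release is stated in the sources used here. Groups and replicate numbers were taken from the labels, every column belonged to 1 tumor (0 left over), and 0 pairs of libraries were identical. The study's methods describe an injection into the flank of each mouse, so tumors were taken as separate animals, and p-values measure the spread between these tumors.

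Genes passing filterByExpr (minimum count 10, minimum total 15) were fitted in R 4.3.3 with edgeR 4.0.16 (TMM factors 0.908 to 1.10, glmQLFit and glmQLFTest, all 12 libraries, no covariate), and p-values were adjusted by Benjamini-Hochberg over all 12897 genes. DESeq2 1.42.0 was an alternative. The pipeline was tested on simulated data. CPM used TMM-scaled totals, and 1 count was worth 0.0837 to 0.116 CPM. Limits on 0 counts hold for counting error alone, because the reads carried no molecular identifiers and cannot stand for independent molecules. Coordinates were taken from the deposited table, and gene overlaps from GENCODE M21. The members and all gene lists were chosen with earlier results of these data known. Genes named were the 6 members, the 8 tested genes closest to Cbln1 and 3 closest to Nrxn2, every partner gene called in a contrast, marker genes as sums or where near 0, and genes said to be singled out. Receptors and Zfp423 were named for their role or place. The same replicate number in different groups was not taken to mark shared samples, because each tumor was taken as a separate animal. Of 18 such pairs 3 had a correlation of deviations over 0.1 (range -0.219 to 0.356). With 3 tumors in each group, these correlations alone cannot decide the question. Some genes of these lists are not reported here.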

Additional observations from a re-analysis of the deposited data

How the results depend on the processing

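Among the members other than Cbln1, which was not tested, 0 were called under each of 17 alternatives; Nrxn2 was the one tested except without a filter on low counts. The log2 fold changes of Cbln1 against Control kept their sign in all alternatives. Without a filter on low counts, 687 genes were called for Trametinib against Control, 324 for Cediranib against Control, 1129 for Combination against Control, 773 for Combination against Trametinib, 637 for Combination against Cediranib, 261 for the difference of differences and 19 partner genes; the cause was not tested. DESeq2 called 10 genes for Cediranib against Control, 347 for Combination against Trametinib, 28 for the difference of differences and 9 partner genes. With only the 2 groups of the contrast, 274 genes were called for Combination against Trametinib, and with the replicate number as a block 57 in place of 87; the block moved no other count by over 1.5 times.

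With 1 tumor left out, the counts ran from 0 to 7 for Cediranib against Control (7 without Cediranib tumor 2), 237 to 575 for Combination against Control (267 and 237 without Control tumor 2 or 3, 306 and 261 without Combination tumor 1 or 2), 0 to 21 for Combination against Trametinib (16, 3 and 6 without Trametinib tumor 1, 2 or 3, and 21, 0 and 10 without Combination tumor 1, 2 or 3), 188 to 275 for Combination against Cediranib (188 without Cediranib tumor 1), 0 to 1 for the difference of differences and 3 to 8 partner genes (8 without Control tumor 1). Nrxn2 changed sign for Trametinib against Control (-0.29 to 1.64), Combination against Trametinib (-0.083 to 1.82), Combination against Cediranib (-0.029 to 0.95) and the difference of differences (-1.17 to 0.75). Of the 8 genes closest to Cbln1, 5 were kept with a prior count of 0.5. Library totals in place of TMM shifted the median gene by 0.11 to 0.13 in the contrasts with the Combination group and the share of higher calls for Combination against Control from 52.8% to 62.6%. Depth limits Cbln2, Cbln3, Cbln4 and Nrxn3, and the few Cbln1 counts after trametinib. The capture of each gene and the RNA degradation of each tumor were not assessed.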
